A study of Mus musculus with 4 samples.

Results

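The cells described here were selected as mature, mucus-filled goblet cells of the mouse small intestine, and they numbered 4146 of the 32872 cells kept from 4 single-cell RNA sequencing libraries. A cell was a member when Muc2, Fcgbp, Clca1 and Zg16 together gave at least 100 of every 10000 unique molecular identifiers (UMIs, each standing for 1 captured mRNA molecule). Members also had under 20% of their UMIs from the Paneth cell genes Lyz1 and those named Defa. Kept cells had at least 1000 UMIs, at least 500 genes and under 30% UMIs from mitochondrial genes. The sum of the 4 mucus genes, per 10000 UMIs of a cell, is called the mucus-gene sum below. Because measured values chose the members, those 4 genes, the Defa genes and Lyz1 are given as a description with no test of their own. They stayed in the fits, so counts of called genes can include them.

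The mice were 25 weeks old and either wild type or TrnA G5081A point mutants, which carry a base change in the mitochondrial gene for the alanine tRNA. Wild type 1 and mutant 1, with a mutation load of 77%, form set A, whose titles give no sex. Wild type 2 and mutant 2, with a load of 81%, form set B, titled male. Load is the share of mitochondrial genomes that carry the change, so mutant cells still hold some unmutated copies, and it was not measured here. The labels give no controls other than wild type, do not say whether libraries came from separate mice, and name no colitis treatment, although the series title speaks of acute colitis.

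Goblet cells are secretory cells that arise from crypt progenitors under the transcription factor Atoh1 and mature under Spdef. They fold and glycosylate very large amounts of the mucin Muc2 in the endoplasmic reticulum (ER) and Golgi, pack it into granules, and release it to form the mucus layer that keeps bacteria away from the epithelium. Muc2 is the gel-forming mucin, Fcgbp a protein cross-linked into the mucin network, Clca1 a metalloprotease of mucus, and Zg16 a lectin that binds bacterial cell walls.

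Values given 4 in a row are for wild type 1, mutant 1, wild type 2 and mutant 2, in that order, unless the sentence says otherwise. The libraries held 5974, 13805, 12398 and 12399 barcodes, and their totals ran from 99772712 to 127796409 UMIs. UMIs summed over the goblet cells were 15639595, 16087065, 11187583 and 8747478. Over the 6 pairs of libraries, 2 goblet barcodes occurred in both members of a pair. Per the file headers, the sets also differ in the version of Cell Ranger that made the counts.

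Goblet cells made up 18.9% of kept cells in wild type 1 (exact binomial 95% interval 17.8 to 20.1%, 859 cells) and 14.6% in mutant 1 (13.9 to 15.2%, 1674 cells). They made up 10.5% in wild type 2 (9.81 to 11.1%, 857 cells) and 8.74% in mutant 2 (8.16 to 9.36%, 756 cells). The intervals cover counting error only, and the sets lie further apart than the genotypes within a set. The share averaged 14.7% ± 6.0 (SD, n = 2) in wild type and 11.6% ± 4.11 (SD, n = 2) in the mutants. The difference of -3.06 percentage points had p = 0.667 in an exact two-sided permutation test over libraries, in which 0.33 is the smallest p this design allows. It was the first of 3 such tests (share, median UMIs, mitochondrial share), and adjusted over them (Benjamini-Hochberg) each had an exact permutation p of 0.667. Within sets it was -4.40 points in A and -1.72 in B, and without wild type 1 it turned to 1.18 points.

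Most members lay far above the threshold. The median mucus-gene sum was 847, 497, 658 and 451, against 4.41 to 6.99 in the other kept cells. Sums of 1000 or more were found in 44.9%, 31.3%, 40.7% and 29.8% of goblet cells, a lower share in the mutant of each set. Cells between 100 and 200 made up 17.5%, 21.9%, 16.9% and 29.2%. Around the threshold itself, 26, 54, 18 and 35 members had sums of 100 to 110, and 22, 63, 19 and 28 non-members had sums of 90 to 100. The members closest to the threshold had sums of 100.5, 100.05, 101.06 and 100, and the closest cells outside had 98.8, 99.9, 99.4 and 99.9. Below it, 3562 kept cells had sums of 20 to 100, and the plot of mucus-gene sums shows no empty range at the threshold, so the members are a range of a continuous score. The limit on Defa genes and Lyz1 removed 3, 33, 28 and 11 cells.

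**Figure D1:**
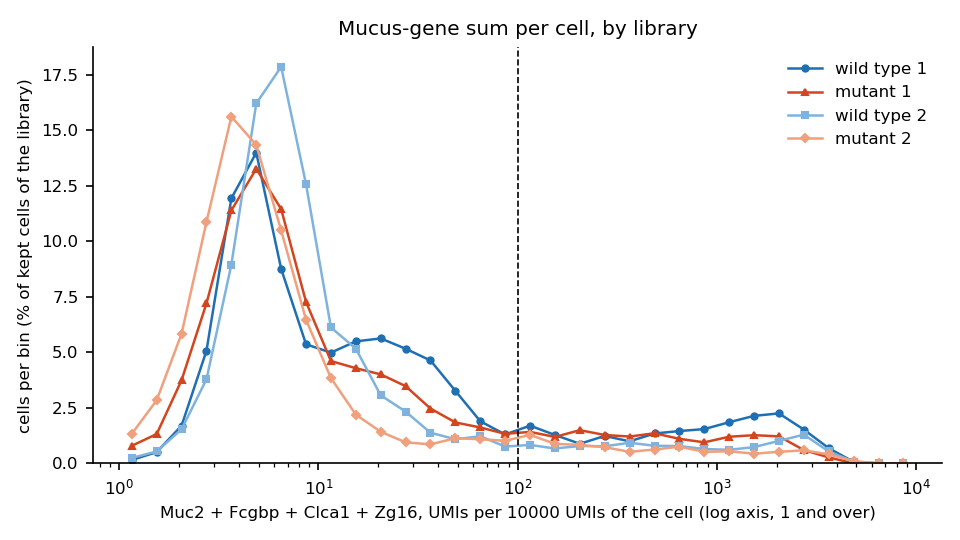
Distribution of the mucus-gene sum (Muc2, Fcgbp, Clca1 and Zg16 UMIs per 10000 UMIs, log axis) over the kept cells of each library, with the threshold of 100. Goblet cells lie to the right of the line, with medians of 451 to 847, and the cells between 20 and 100 join them to the main mass of cells without a gap.

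**Figure D2:**
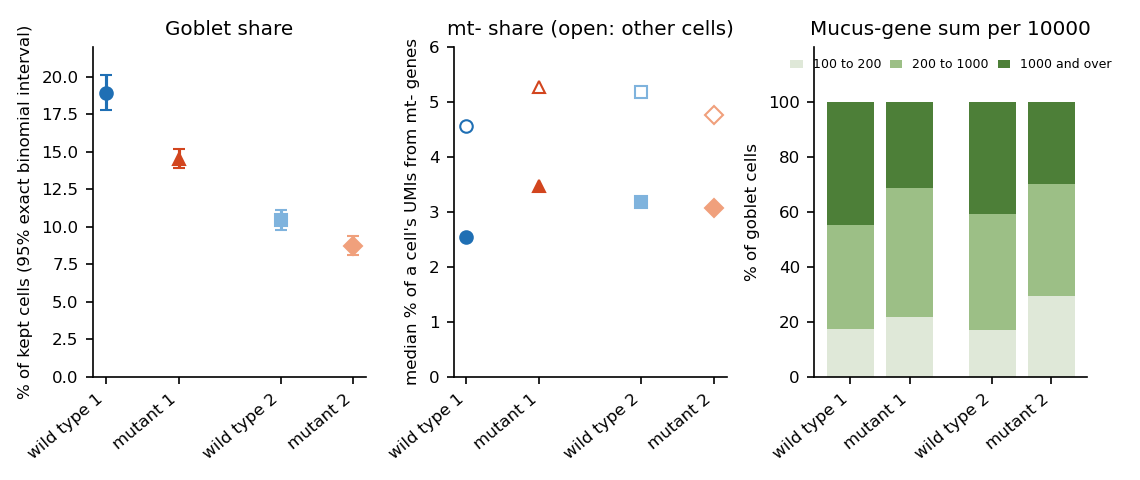
Goblet share of kept cells with exact binomial 95% intervals, median mitochondrial share of UMIs in goblet cells (filled) and the other kept cells (open), and goblet cells by range of the mucus-gene sum, in each of the 4 libraries. The share is lower in the mutant of each set (14.6 against 18.9% and 8.74 against 10.5%), the mitochondrial share has no common direction, and the part of cells at 1000 and over is smaller in both mutants.

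The 4 rule genes lie at 7:141690340-141754693 (Muc2, plus strand), 7:28071236-28120862 (Fcgbp, plus strand), 3:145003817-145032776 (Clca1, minus strand) and 7:127050156-127087328 (Zg16, minus strand) in GRCm38 (GENCODE vM21). Together they gave 8.56%, 5.66%, 8.45% and 7.26% of all UMIs of goblet cells, against 0.10 to 0.13% of those of the other kept cells. Levels below are UMIs summed over the cells of a library and scaled to a total of 1000000 (CPM). Zg16 stood at 55519, 36100, 55010 and 45416 CPM. Muc2 stood at 11212, 8425, 11687 and 11060 CPM. Fcgbp was at 14350, 9358, 13873 and 12360 CPM, and Clca1 at 4477, 2732, 3903 and 3791. Each rule gene was lower in the mutant than in the wild type of its set, with log2 ratios over both sets of -0.45 for Zg16, -0.38 for Fcgbp, -0.36 for Clca1 and -0.24 for Muc2. The lowest level of each was in mutant 1, and the mutants also had the lower mucus-gene sums by which cells were chosen.

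The label came with 2 markers outside the rule, Ido1 (8:24584136-24597009, minus strand) and Fer1l6 (15:58510048-58665092, plus strand). Ido1 is the enzyme that starts tryptophan breakdown along the kynurenine path, and Fer1l6 is of the ferlin family. Ido1 was at 525, 226, 213 and 266 CPM in goblet cells and at 3.74, 2.76, 1.47 and 1.86 CPM in the other kept cells, a log2 difference of 5.92 to 6.80. Fer1l6 was at 598, 408, 425 and 409 CPM against 11.0, 11.3, 6.56 and 6.31. Both markers were far higher in goblet cells of every library, without overlap. As they were given with the label, this describes the cells and is no independent check of it. With every cell thinned to 1000 UMIs, Ido1 had a UMI in 33.5%, 23.7%, 21.8% and 16.9% of goblet cells, and in 0.58%, 0.28%, 0.13% and 0.16% of cells with a mucus-gene sum under 20. Without thinning the shares were 48.8%, 36.0%, 33.3% and 27.1% of goblet cells against 6.64%, 1.74%, 1.03% and 1.37%. Fer1l6 was found in 51.6%, 41.0%, 38.7% and 34.5% of thinned goblet cells, against 0.62%, 0.34%, 0.33% and 0.14% of the cells under 20. The median depth was 14450, 8329.5, 11964 and 11107.5 UMIs in goblet cells and 25222, 10343.5, 10916 and 10475.5 in the cells under 20. No cell was lost to thinning, since every kept cell had at least 1000 UMIs.

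Several secreted products were higher in these cells than in the other kept cells, beyond the rule genes. Tff3, the trefoil peptide that goes out with the mucus, was at 28556, 26746, 30703 and 25031 CPM in goblet cells, at 7197, 7377, 7847 and 7563 CPM in the cells with sums of 20 to 100, and at 1322, 1430, 1170 and 870 CPM in all other kept cells. Agr2, the ER protein that Muc2 needs to fold, was at 20233, 13443, 16138 and 18172 CPM, against 1846, 1389, 1020 and 1066. It already stood at 12175, 8981, 9248 and 11807 CPM in the cells with sums of 20 to 100, so it fell off below the threshold less than Tff3. Spink4, a small secreted protease inhibitor, was at 9410, 8777, 14287 and 12757 CPM, a log2 difference from the other kept cells of 2.64 to 3.15. After thinning it had a UMI in 90.1%, 90.8%, 92.3% and 96.0% of goblet cells. In the cells with sums of 20 to 100 these shares were 56.7%, 69.5%, 70.2% and 81.5%. Klk1, a secreted serine protease, was at 724, 531, 793 and 733 CPM.

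Of 23 listed secreted products 21 passed the filter on low counts, and 15 of these were higher in goblet cells than in the other kept cells of all 4 libraries, 4 lower, with a median log2 difference of 1.58. The list does not hold the rule genes. Over all genes tested 28.5% were higher and 46.3% lower in all 4 libraries, with a median of -0.15. The antimicrobial lectin Itln1 was lower in goblet cells, by a log2 difference of -2.20 to -0.99, and so was the ribonuclease Ang4, at -3.48 to -2.11. Retnlb, the resistin-like protein of goblet cells that is induced in infection and colitis, was near the floor at 1.41, 0.186, 1.16 and 4.34 CPM. Itln1 and Ang4 were thus lower than in a pool that includes 1101 cells with 20% or more of UMIs from Defa genes and Lyz1. That comparison does not show that they were low in goblet cells.

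Granule release genes were the list with the largest median difference among the machinery lists. Of 25 genes for granule exocytosis and ion transport, 19 were higher in goblet cells of all 4 libraries and 4 lower, with a median log2 difference of 2.38. Sytl2, an effector that ties Rab27 to granule membranes, was at 551, 387, 465 and 386 CPM against 29.5, 27.4, 25.6 and 21.1. Rab27a, the small GTPase of granule docking, was at 133, 90.1, 94.8 and 89.4 CPM, 3.33 to 3.83 higher on the log2 scale. Capn9, a calpain protease of the gut, was 4.57 to 5.15 higher, and Bcas1 4.11 to 4.81 higher. The chloride and bicarbonate channel Cftr was lower, at -2.35 to -1.40, as was Nlrp6, an inflammasome sensor linked to mucus release, at -2.33 to -1.27.

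Mucin glycosylation and sulfation genes followed the same direction, with 21 of 26 tested higher in all 4 libraries, 2 lower and a median of 1.33. Galnt12, which adds the first sugar of O-glycans, was 2.16 to 2.71 higher, and C1galt1, which extends it to core 1, 1.92 to 2.26 higher. Gcnt3, which branches the glycans, was at 264, 208, 180 and 181 CPM, 3.0 to 3.50 higher. Chst4, a sulfotransferase, was at 82.8, 50.2, 67.0 and 63.0 CPM against 4.33, 3.48, 4.11 and 2.98.

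Of 33 genes for protein folding in the ER, 32 were higher in goblet cells of all 4 libraries, 0 lower and a median of 1.07. Hspa5, the main ER chaperone (BiP), was at 1181, 664, 1131 and 1160 CPM, against 485, 308, 430 and 388. Pdia5, a protein disulfide isomerase, was at 276, 186, 207 and 246 CPM against 55.4, 42.0, 31.8 and 31.7, and it was as high in the cells with sums of 20 to 100, at 286, 201, 192 and 243. Ern2, the intestinal form of the ER stress sensor Ire1, was at 140, 82.2, 85.7 and 84.1 CPM, 2.78 to 3.24 higher than in the other kept cells. After thinning it had a UMI in 14.6%, 9.80%, 8.52% and 8.20% of goblet cells, and in 4.08%, 4.91%, 5.07% and 7.17% of cells with sums of 20 to 100. Creld2 and Pdia6, folding enzymes of the ER, were 1.25 to 1.91 and 1.19 to 1.76 higher, and the lectin chaperone Calr 0.83 to 1.32. The gene that did not follow in all 4 libraries was Canx, the membrane-bound lectin chaperone, at -0.26 to 0.03.

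Some of these folding genes carry the ER stress response element, CCAAT and CCACG with any 9 bases between them, which was searched on both strands in the 250 bases before each start site in RefSeq's table for GRCm38.p6. It was held by 8 of the 27 listed ER genes in the table (Hspa5, Hsp90b1, Calr, Canx, Pdia6, Dnajc3, Creld2 and Derl3), against 0.13% of all 27025 genes. The element was found in Canx too, the gene whose level did not follow the others. A match describes the letters in the window and no use of the site in these cells. The sequences below show it in capitals for 4 of the genes above, on the strand of the gene, 5′ to 3′, and in Calr and Creld2 the element runs on the opposite strand. The stretches are chr2:34771985-34772083 on the plus strand for Hspa5, chr8:84847035-84847133 on the minus strand for Calr, chr12:17266451-17266549 on the plus strand for Pdia6 and chr15:88819480-88819578 on the plus strand for Creld2.
Hspa5: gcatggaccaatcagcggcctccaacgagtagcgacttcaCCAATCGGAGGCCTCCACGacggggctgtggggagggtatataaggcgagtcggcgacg
Calr: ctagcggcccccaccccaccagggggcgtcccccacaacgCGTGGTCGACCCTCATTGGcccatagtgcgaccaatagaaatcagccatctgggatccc
Pdia6: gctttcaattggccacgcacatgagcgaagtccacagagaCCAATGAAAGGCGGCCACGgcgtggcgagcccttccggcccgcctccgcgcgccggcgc
Creld2: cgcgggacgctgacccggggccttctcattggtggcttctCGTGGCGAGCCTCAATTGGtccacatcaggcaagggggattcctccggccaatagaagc

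Among 20 transcription factors of the goblet lineage, 14 were higher in goblet cells of all 4 libraries and 3 lower. Atoh1, which commits cells to the secretory fate, was at 288, 244, 226 and 215 CPM, 2.49 to 3.15 higher on the log2 scale. Spdef, which drives goblet maturation, was at 170, 104, 97.2 and 104 CPM, against 20.5, 14.9, 11.3 and 8.91. After thinning, Spdef had a UMI in 17.7%, 11.9%, 10.6% and 9.52% of goblet cells, and in 4.64%, 6.12%, 6.80% and 8.57% of cells with sums of 20 to 100. Klf4, needed for goblet differentiation, was at 513, 395, 356 and 374 CPM, and Creb3l1, an ER-bound factor of secretory cells, at 322, 248, 251 and 273. Foxa3 was 2.26 to 2.67 higher.

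Genes of respiration were lower in goblet cells. Of 75 nuclear genes for respiratory chain subunits, 72 were lower than in the other kept cells of all 4 libraries and 0 higher, with a median of -0.41. Of the 13 mRNAs encoded in mitochondrial DNA, 12 were lower and 0 higher, with a median of -0.48. The median share of UMIs from mitochondrial genes was 2.55%, 3.47%, 3.18% and 3.07% in goblet cells, against 4.56%, 5.28%, 5.18% and 4.77%. These values include the rule genes in the total, whose 5.66 to 8.56% of the UMIs lowers the level of every other gene alike.

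Most markers of other cell types were lower in goblet cells than in the other kept cells, but not absent. Of 15 Paneth cell markers 14 were lower in goblet cells, 14 of 15 enterocyte markers, 9 of 10 stem cell markers, 14 of 14 cycling markers and 9 of 11 enteroendocrine markers. Summed over the list, Paneth markers stood at 3895, 7549, 12482 and 9347 CPM in goblet cells, and the rule limits part of these genes. Enterocyte markers summed to 5127, 5864, 7086 and 8276 CPM, and cycling markers to 942, 2018, 1443 and 1193 CPM, with mutant 1 highest. After thinning, the proliferation marker Mki67 had a UMI in 1.51%, 3.17%, 4.08% and 2.78% of goblet cells, against 7.81%, 8.13%, 7.73% and 6.61% of cells with a sum under 20. The unthinned shares were 16.8%, 17.9%, 23.5% and 18.1% against 42.6%, 39.6%, 31.8% and 30.6%. Secretory precursor markers, which include Atoh1, were the exception, with sums of 490, 453, 367 and 353 CPM in goblet cells against 266, 232, 206 and 148. Atoh1, at the levels given above, made up most of these goblet sums. Of 7 tested members 4 were higher in goblet cells of all 4 libraries and 3 lower. In the cells with mucus-gene sums of 20 to 100 the list stood higher still, at 593, 534, 563 and 425 CPM. T cell markers summed to at most 13 CPM, and in wild type 2 Cd3d, Trac, Cd7, Cd8a and Ptprc were at 0.

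**Figure D3:**
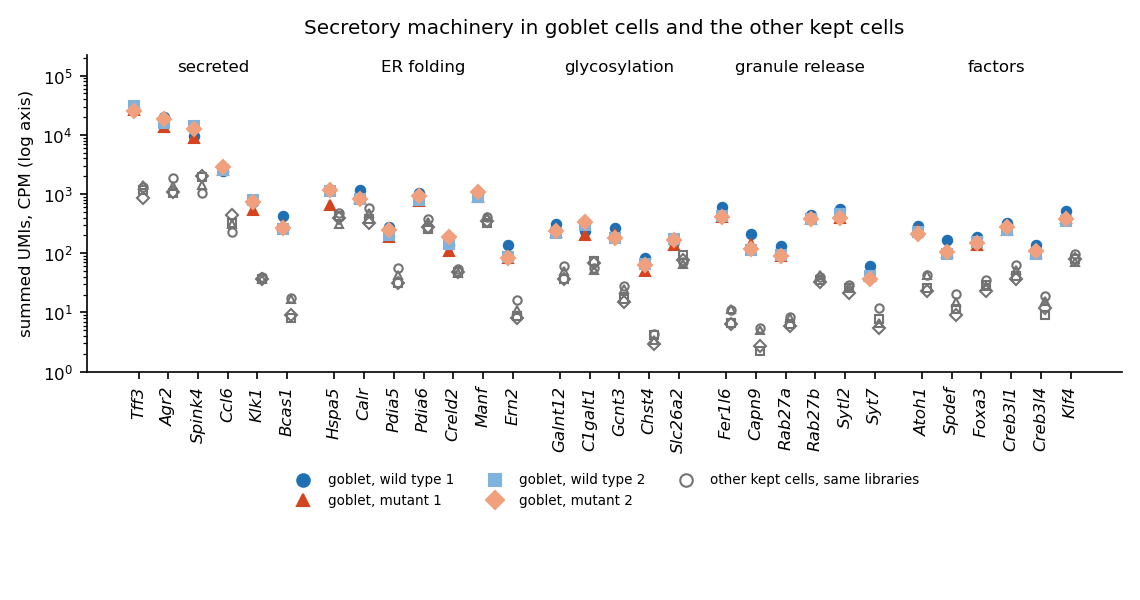
CPM of genes of the secretory machinery (log axis), grouped by role, in goblet cells (filled, 1 colour and shape per library) and in the other kept cells of the same libraries (open grey). For each gene the 4 goblet points lie above the 4 open points. Among plotted genes of at least 50 CPM in goblet cells of every library, the widest log2 differences are those of Fer1l6 (5.05 to 5.82), Capn9 (4.57 to 5.15), Tff3 (4.22 to 4.84) and Bcas1 (4.11 to 4.81).

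The members were not uniform, and they were described by terciles of the mucus-gene sum within each library, with CPM scaled after leaving out the rule genes, the Defa genes and Lyz1, and a pseudocount of 1 CPM. Median sums were 191, 169, 198 and 140 in the lower tercile and 2102, 1659, 2466 and 1908 in the upper. Total UMIs of a cell are the divisor of its mucus-gene sum, by which the terciles were made. Cells of the upper tercile gave fewer UMIs, with medians of 7313, 3556, 6639 and 7199.5 against 25241, 10371.5, 14707 and 11988.5, and 2376, 1503.5, 2008 and 2140 genes against 5209.5, 3397.5, 4043.5 and 3580.5. Their mitochondrial share was also lower, at 1.02%, 1.67%, 2.11% and 2.30% against 3.14%, 4.25%, 3.69% and 3.38%. At a fixed rate, scrublet called 2.09%, 2.51%, 7.34% and 6.75% of the upper tercile doublets (2 cells under 1 barcode), and 11.2%, 30.5%, 12.9% and 17.1% of the lower. The part of depth, mitochondrial share and doublets in the differences below was not tested, beyond the counts without called doublets. Over all genes tested, 24.9% were higher in the upper tercile of all 4 libraries and 42.1% lower, with a median log2 difference of -0.21.

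Ido1 stood apart among the genes that climbed with the mucus-gene sum. It was at 22.6, 33.7, 8.08 and 4.30 CPM in the lower tercile and at 2841, 1259, 1267 and 1275 CPM in the upper, a log2 difference of 5.18 to 7.91. After thinning, it had a UMI in 3.15%, 3.41%, 1.75% and 0% of cells of the lower tercile and 72.5%, 58.1%, 55.9% and 45.6% of the upper; without thinning these were 15%, 11.6%, 6.29% and 2.78% against 93.4%, 75.6%, 76.9% and 65.9%. Ido1 thus marked the cells with the highest mucus-gene sums more than the class as a whole. The 0 is of 252 cells, and the deeper unthinned count found it in some of them.

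Other genes shared the pattern of Ido1. Ddx60, an interferon-induced RNA helicase, went from 39.6, 48.0, 25.8 and 39.3 CPM to 815, 838, 610 and 724. Mxd1, an antagonist of Myc, went from 38.1, 72.8, 55.5 and 45.3 CPM to 1397, 970, 924 and 744. S100a6, a small calcium-binding protein, went from 460, 447, 703 and 539 CPM to 8470, 6572, 8598 and 6605. In each of these the lowest upper value lay above the highest lower value. Sytl5, of the Rab27 effector family, was 3.14 to 3.62 higher on the log2 scale. Fer1l6 was 2.77 to 3.29 higher, Tff3 2.32 to 2.65, Rab27a 1.54 to 2.25 and Klf4 1.34 to 1.65. The lineage factors Atoh1 (0.48 to 0.97) and Spdef (0.07 to 0.90) differed less.

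By list, 15 of 25 genes for granule exocytosis were higher in the upper tercile of all 4 libraries and 4 lower, and 17 of 26 for glycosylation, with 5 lower. Of 33 ER folding genes 8 were higher and 19 lower, with a median of -0.40, where the share of higher genes is close to that of all genes and the share of lower ones above it. Pdia5 went from 384, 222, 276 and 336 CPM to 65.5, 97.4, 79.6 and 130, and Creld2 was lower by a log2 difference of -1.34 to -0.68. Hspa5 differed little, at -0.56 to 0.20, and Agr2 was at -0.64 to -0.04, both with their highest level in the middle tercile of each library.

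Cell cycle and respiration genes were lower in the upper tercile. Mki67 had a UMI in 3.15%, 5.20%, 7.69% and 5.56% of thinned cells of the lower tercile and in 0.348%, 0.896%, 0.699% and 0% of the upper. Without thinning these were 29.0%, 30.6%, 40.6% and 29.0% against 5.23%, 3.58%, 5.24% and 4.76%. In wild type 2 and mutant 2 the lower tercile was thus close to the cells with a sum under 20, at 7.73% and 6.61% after thinning. By this 1 marker the word mature in the label goes against the data there, and it describes the upper tercile better. In wild type 1 and mutant 1 the cells under 20 were further above the lower tercile, at 7.81% and 8.13%. Other markers set the lower tercile of wild type 2 and mutant 2 further apart. Summed cycling markers were at 2236 and 1855 CPM in it, against 2950 and 2616 in the other kept cells. The stem cell marker Lgr5 had a UMI in 1.75% and 3.57% of its thinned cells, against 7.98% and 6.34% of cells under 20. All 14 cycling markers were lower in the upper tercile than in the lower of all 4 libraries, with a median of -2.61. Top2a, the topoisomerase of dividing cells, went from 103, 142, 196 and 146 CPM to 21.1, 25.7, 15.6 and 25.8. Of the 75 nuclear respiratory chain genes 74 were lower and 1 higher, with a median of -0.88, and 9 of 13 mitochondrial mRNAs were lower, with 0 higher and a median of -0.29. Sox9, a factor of crypt progenitors and Paneth cells, was lower by -3.16 to -1.52, Cftr by -2.36 to -1.52 and the chemokine Ccl9 by -3.48 to -1.70. Pclaf (-4.18 to -2.44), Ube2c (-3.76 to -2.16), Lsm5 (-2.63 to -2.15) and Hmgn2 (-2.61 to -2.01) were among those furthest down.

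Interferon-induced and MHC class I genes were high where the mucus-gene sum was high, while MHC class II genes were low. Of 32 genes on the list of interferon and MHC genes, 22 were higher in the upper tercile of all 4 libraries and 7 lower, with a median of 1.29. Rsad2 (viperin), an interferon-induced antiviral protein, went from 1.35, 2.08, 0.655 and 2.98 CPM to 99.3, 63.8, 56.9 and 69.2. Gbp2, a guanylate-binding GTPase, was 3.38 to 5.62 higher, Isg15, a ubiquitin-like modifier, 2.62 to 3.54 and Ifit1, which binds viral RNA, 2.64 to 3.05. H2-K1, an MHC class I heavy chain, went from 1164, 1241, 666 and 933 CPM to 3376, 3137, 1950 and 2438, and its partner B2m was 1.1 to 1.42 higher. The 7 lower genes were all of class II: Cd74, H2-Aa, H2-Ab1, H2-Eb1, H2-DMa, H2-DMb1 and Ciita, the class II transactivator. Cd74, the invariant chain, went from 606, 650, 221 and 423 CPM to 332, 245, 108 and 226.

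Without the cells that scrublet called doublets, an alternative added after the data were seen, 3064 genes were higher and 5341 lower in all 4 libraries, in place of 3206 and 5408. The list of interferon and MHC genes then had 23 higher and 7 lower, ER folding 6 and 21, the nuclear respiratory chain 1 and 73, and cycling markers 0 and 14. The split between lists therefore held with those cells gone.

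The interferon-stimulated response element, GAAA and GAAA with any 2 bases between them, was searched in the same way on both strands of the 250 bases before each start. It was found in 10 of 21 genes of the interferon and MHC list that are in RefSeq's table (Isg15, Ifit1, Ifit3, Ifit1bl1, Oas1a, Rsad2, Bst2, Igtp, Gbp2 and B2m), against 3.46% of all genes. The sequences of Ifit1 (chr19:34640745-34640853, plus strand) and Isg15 (chr4:156200835-156200936, minus strand) show how such elements lie close together, 2 in Ifit1 and 3 overlapping ones in Isg15, in capitals, on the strand of the gene and 5′ to 3′. In Ifit1 both run on the opposite strand.
Ifit1: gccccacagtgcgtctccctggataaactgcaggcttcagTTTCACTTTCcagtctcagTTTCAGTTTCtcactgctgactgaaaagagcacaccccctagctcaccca
Isg15: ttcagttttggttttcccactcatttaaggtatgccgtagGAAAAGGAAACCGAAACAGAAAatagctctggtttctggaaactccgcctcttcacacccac

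**Figure D4:**
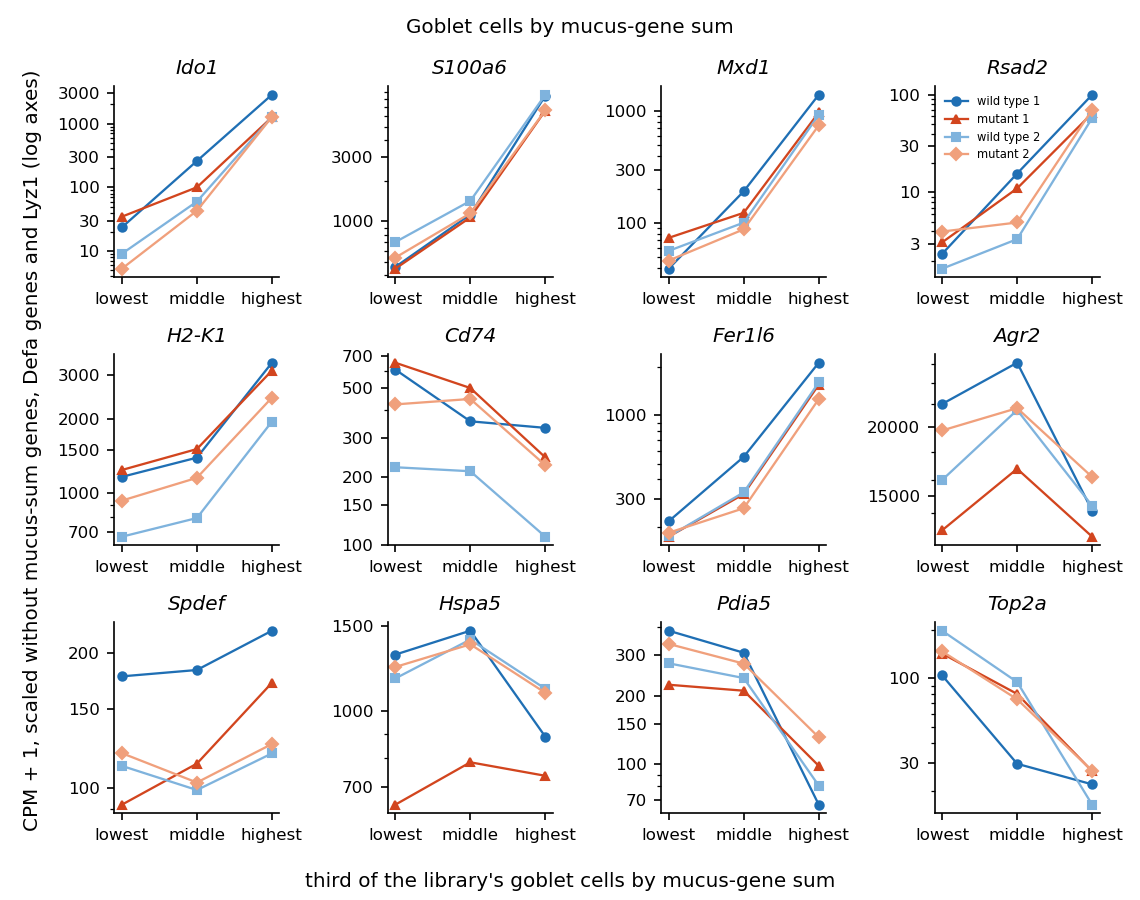
CPM plus 1 (log axes) of selected genes in goblet cells split into terciles of the mucus-gene sum (lowest, middle and highest), 1 line per library, scaled without the rule genes, the Defa genes and Lyz1. Ido1, S100a6, Mxd1, Rsad2, H2-K1 and Fer1l6 climb in each library, Pdia5 and Top2a drop, and Agr2 and Hspa5 are highest in the middle.

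Mutants were compared with wild type over the 4 goblet sums, with edgeR's quasi-likelihood test and no term for the set. The comparison asks whether the mitochondrial mutation goes with a changed goblet cell program. At a Benjamini-Hochberg adjusted p under 0.05, edgeR called 0 of 12858 genes (0%), and 134 had an unadjusted p under 0.05. With the set as a block edgeR called 0 (444 unadjusted), DESeq2 called 0 (85 unadjusted), and DESeq2 with the block called 1, Gip. Leaving out 1 library gave 2 calls without wild type 1 (Gip and Chgb), 32 without wild type 2 (28 higher, 4 lower) and 0 without either mutant. With no filter on low counts 21 were called, Defa20 and Defa32 among them. The calls without wild type 2 also included Defa genes, which the rule bounds. The sets disagreed: across genes the log2 ratios of set A and set B had a correlation of -0.046, given as a description. A gene was higher in the mutants of both sets for 24.9% of genes tested and lower in both for 24.3%.

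No called gene could be named, so genes with the same sign in both sets, ranked by the smaller of their 2 ratios, are given as values, each with an edgeR adjusted p of 1. Ifitm3, an interferon-induced membrane protein that blocks virus entry, was at 38.4, 71.1, 43.3 and 67.0 CPM (log2 0.74, SE 0.18, unadjusted p = 0.00382 in edgeR). Its log2 ratio was 0.54 without called doublets. The mutants did not overlap the wild types for Ifitm3, but the ranking favours such separation. Neither that nor the unadjusted p-values given here are therefore evidence of a difference. Insig1, which holds back sterol synthesis, was at 54.5, 80.4, 28.5 and 45.5 CPM, where the sets lay as far apart as the genotypes. H2-Eb1, an MHC class II chain, was at 124, 177, 54.8 and 118 CPM, and Snrnp40, a splicing factor, at 60.6, 91.3, 44.8 and 60.9. On the lower side, Serpina1b, a protease inhibitor, was at 162, 123, 175 and 127 CPM (log2 -0.45, unadjusted p = 0.038). The noncoding RNA Neat1 was at 601, 429, 437 and 326 CPM, Frmd3 at 59.4, 41.3, 65.1 and 43.3, and Grip1 at 101, 63.0, 52.9 and 35.1. Nts, the gut peptide neurotensin, was at 200, 17.5, 12.2 and 7.77 CPM, where 1 barcode of wild type 1 held 2552 of 3127 UMIs. Its log2 ratio of -3.05 became 0.02 without that library.

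Most secretory lists had medians below 0 in set A and near 0 in set B. Of 21 secreted products 0 were higher and 6 lower in the mutants of both sets, with a median log2 ratio of -0.18, which was -0.43 in set A and 0.11 in B. The 6 were Tff3, Spink4, Ang4, Itln1, Guca2a and Klk1. For granule exocytosis 2 of 25 were higher and 12 lower in both sets (-0.39 in A, -0.05 in B), for glycosylation 2 and 9 of 26 (-0.37 and 0.02) and for ER folding 2 and 10 of 33 (-0.37 and 0.04). Transcription factors gave 2 and 9 of 20 (-0.27 and -0.02). In none of these lists was a gene called, and the median over all genes was -0.00. Over all genes tested 24.9% were higher and 24.3% lower in both sets. The lower counts of secreted products and ER folding genes were close to that share. Examples were Sytl2, at a log2 ratio of -0.40 (SE 0.19, unadjusted p = 0.0733 in edgeR), Papss2, which makes the sulfate donor, at -0.39, and Ern2, at -0.45 with -0.80 in set A and -0.02 in B. Median UMIs per goblet cell were also lower in both mutants, by -3488.5 on average (exact permutation p = 0.33, the smallest possible). The mutants also held more cells of low mucus-gene sum, and the part of that in these ratios was not tested.

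Respiratory genes of the nucleus were higher in both mutants more often than lower, with 38 of 75 higher and 4 lower in both sets. The shares over all genes were 24.9% and 24.3%. The median was 0.09, against 0.11 in the other kept cells, and the interaction median was -0.01. No gene was called. Under the alternatives that kept all libraries the goblet median was -0.05 to 0.10. These genes were lower in the upper tercile, and the mutants had a larger share of cells at low mucus-gene sums. The part of that in these ratios was not tested. Ndufc2, a complex I subunit, had a log2 ratio of 0.34. The mitochondrial mRNAs had medians of opposite sign in the sets, 0.50 in set A and -0.23 in B, 2 of 13 higher and 2 lower in both. Cytochrome b, mt-Cytb, was at 2962, 4804, 4038 and 4920 CPM, and mt-Nd3 at 306, 769, 597 and 488. The median mitochondrial share of UMIs followed, with a difference of 0.922 percentage points in set A and -0.108 in B (mean 0.407, exact permutation p = 0.667).

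Interferon and MHC genes had 10 of 32 higher and 0 lower in both sets, against 24.9% and 24.3% of all genes. Their median of 0.30 was -0.19 in set A and 0.90 in B. Ifit1 had a log2 ratio of 0.87 (0.71 in A and 1.11 in B) and Isg15 of 0.74. In the other kept cells the median of the list was 0.40, and the interaction median was -0.02. T cell markers summed to 5.0, 12.3, 1.8 and 13 CPM, and 3 of 10 passed the filter (Ccl5, Gzma and Gzmb), too few for a median. Ccl5 had 31, 74, 6 and 54 UMIs, of which 1 barcode in each mutant held 44 and 41. Cycling markers stood at a median of 0.87 in set A and -0.28 in B, Paneth markers at 1.45 and -0.27, and enterocyte markers at 0.70 and 0.12. Their part in the ratios above was not tested.

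Whether the genotype difference in goblet cells differed from that in the other kept cells was tested as an interaction over 8 sums, with the library as a block. edgeR called 2 of 16227 genes (0.0123%) at a Benjamini-Hochberg adjusted p under 0.05, and 450 had an unadjusted p under 0.05. Gip (11:96024545-96030831, plus strand), the incretin hormone of K cells, had an interaction of 2.90 on the log2 scale (SE 0.15, edgeR adjusted p = 0.00182). It was at 48.0, 137, 12.6 and 82.1 CPM in goblet cells and 1289, 401, 336 and 292 in the others. Few barcodes held it: 1, 7, 0 and 2 goblet cells had 10 or more Gip UMIs, with 202, 1788, 0 and 588 UMIs of 751, 2208, 141 and 718, and scrublet called 1, 6, 0 and 1 of those cells doublets. In the goblet cells with fewer, Gip was at 35.2, 26.2, 12.6 and 15 CPM. Hbb-bs (7:103826534-103828096, minus strand), a beta globin of red blood cells, had an interaction of -5.03 (SE 0.43, edgeR adjusted p = 0.0332), with 32, 10, 5 and 2 UMIs in all goblet cells against 117, 1194, 25 and 737 in the others. There 112, 51, 25 and 35 barcodes held them, so the mutants' UMIs sat in few barcodes. Neither is a gene of the goblet lists. Without called doublets Gip was still called, at 2.74 (edgeR adjusted p = 0.0062). With no filter on low counts the calls included Zg16, Muc2, Defa17 and Defa24, which the rule bounds. The count became 10 with DESeq2, 81 with no filter on low counts, 1 without called doublets and 0 with the mucus-gene threshold at 50 or at 200. It was 0 without wild type 1, 1 without wild type 2 and 3 without either mutant.

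Integrated stress response genes, which cells switch on through the factor Atf4 when translation is disturbed, were compared between the 2 kinds of cells gene by gene. They supply amino acids and one-carbon units, and are known to be raised where mitochondrial translation fails. With edgeR's scaling the median log2 ratio of 31 genes was 0.37 in the other kept cells and 0.05 in goblet cells. In goblet cells of both mutants 11 were higher and 6 lower, against 24.9% and 24.3% of all genes, and no gene was called. The list was not higher in goblet cells as a whole, with 13 of 31 genes above the other kept cells of all 4 libraries and 11 below. Asns, asparagine synthetase, was at 71.6, 46.1, 40.2 and 45.4 CPM in goblet cells and 33.6, 34.5, 19.3 and 28.7 in the others. Eif4ebp1, a brake on translation, was at 64.1, 57.2, 48.2 and 53.8 CPM against 32.2, 40.4, 24.4 and 37.3. Mthfd2, an enzyme of mitochondrial folate metabolism, was at 42.9, 44.2, 46.9 and 41.4 CPM against 30.2, 43.2, 35.4 and 38.2. For each of the 3, which were picked for a small p of the interaction, the mutant to wild type ratio was lower in goblet cells than in the others of both sets. Other members went the other way: Cth, Pck2, Phgdh, Sesn2 and Shmt2 had the higher ratio in goblet cells of both sets, on the scale less the all-gene median given below. Shmt2, of mitochondrial serine metabolism, was at 8.12, 15.4, 6.26 and 8.12 CPM in goblet cells against 21.5, 25.4, 13.7 and 15.9. Psat1, of serine synthesis, was at 7.93, 10.3, 7.33 and 12.2 CPM and Slc7a5, an amino acid transporter, at 8.50, 14.1, 8.31 and 9.26, both higher in the mutant of each set. No test was made of the list as a whole.

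Atf5, the stress factor next to Atf4, had the smallest p of the list for this difference, with an interaction of -1.31 (SE 0.18, unadjusted p = 0.000131 in edgeR). It was at 21.5, 17.1, 5.45 and 8.23 CPM in goblet cells, and at 9.92, 16.1, 2.18 and 8.45 CPM in the others. Its edgeR adjusted p was 0.528, while DESeq2 called it. In set A it was lower in mutant goblet cells and higher in the mutant's other cells, and in B it was higher in both. Asns had an interaction of -0.69 (SE 0.13, edgeR adjusted p = 1), Eif4ebp1 of -0.62 and Mthfd2 of -0.53. Cebpb, a factor of the same response, had a ratio above 0 in goblet cells of both sets, at 16.8, 60.1, 23.3 and 27.0 CPM (log2 1.1, unadjusted p = 0.0188).

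The count depended on the scaling, because the median gene of the other kept cells was lower in the mutants by -0.10 in set A and -0.12 in B on plain CPM. Less that all-gene median, 26 of 31 stress response genes were higher in the mutant's other cells of set A, 25 in B and 22 in both. In goblet cells 16 were higher in set A, 20 in B and 11 in both. The goblet ratio was below that of the other cells in both sets for 19 of 31 (61.3%), against 25.6% of all genes tested. On plain CPM it was below in both sets for 12 (38.7%), against 8.38% of all genes, and in B the median was 0.11 in the other cells and 0.16 in goblet cells. The median interaction was -0.27 over 4 libraries, -0.09 without wild type 1 and -0.44 without wild type 2. The plot of stress response ratios in both kinds of cells uses the first of these scales.

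**Figure D5:**
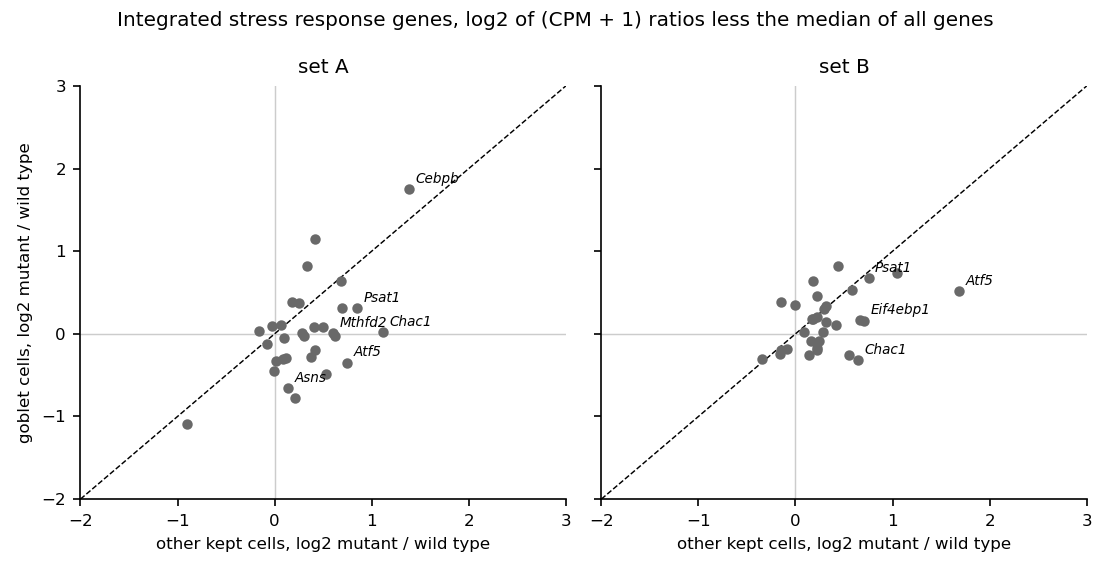
Log2 ratio of mutant to wild type for the 31 integrated stress response genes, in the other kept cells (x axis) and in goblet cells (y axis), 1 panel per set, each less the median of all genes tested. Points below the diagonal have the smaller ratio in goblet cells: 23 in set A and 22 in B.

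The response element of Atf4 with its partners, TGATG and AA with any 1 base between them, searched on both strands, was found in 9 of 28 listed stress response genes in RefSeq's table (Atf3, Asns, Chac1, Vldlr, Slc7a11, Nupr1, Fgf21, Pck2 and Pycr1), against 3.91% of all genes. It is shown in capitals, on the strand of the gene and 5′ to 3′, for Asns (chr6:7693210-7693272, minus strand), whose values are above, and for Chac1 (chr2:119351009-119351096, plus strand), which splits glutathione and had an interaction of -1.76, with no call. In Chac1 it runs on the opposite strand.
Asns: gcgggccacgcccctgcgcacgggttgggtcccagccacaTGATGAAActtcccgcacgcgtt
Chac1: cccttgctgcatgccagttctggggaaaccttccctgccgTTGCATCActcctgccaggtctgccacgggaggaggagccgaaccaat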

How the data were processed

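The deposited values are UMI counts per gene and barcode over 32285 features, not normalized, made by the authors with Cell Ranger, version 7.0.0 for set A and version 7.1.0 for set B per the file headers, on build mm10 per the submitters' processing notes. Per the labels' protocols, epithelium was freed with EDTA and TrypLE, stained with DAPI and for CD326, CD45, CD31 and TER-119, sorted, and made into 10x 3′ libraries (v3.1 chemistry). The gate, aligner settings, intron counting and cell calling options were not given in the sources used here. Total counts per library ran from 99772712 to 127796409 UMIs. Replicate numbers follow the accession order and pair nothing. The sets are pairs only by title and Cell Ranger version. The set was a term only in the fits named as having the set as a block, and not in the main fit. As nothing says that libraries came from separate mice, p-values measure the spread between these libraries.

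Barcodes were kept and members chosen by the rule given above, without clustering and with no doublets removed. Scrublet (scanpy 1.11.5) with its automatic threshold called 0.110%, 17.2%, 0% and 7.70% of kept barcodes, so a fixed rate of 0.8% per 1000 barcodes was used for the alternative. It called 8.27%, 19.5%, 11.3% and 14.0% of goblet cells.

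Counts were summed per library over goblet cells and over the other kept cells, and tested with the edgeR 4.0.16 quasi-likelihood test in R 4.3.3 (TMM, filterByExpr, Benjamini-Hochberg adjustment over all genes tested, threshold 0.05). The fit without a set term had 2 residual degrees of freedom, 1 with that term, and the interaction over 8 sums had 2. The same sums were also fitted with DESeq2 1.42.0. Shares, median UMIs and mitochondrial shares were compared in exact two-sided permutation tests over libraries. The difference between goblet and other cells and that between terciles follow from the rule and have no test. Scripts were tested on simulated data. Alternatives were other thresholds of the rule (mucus-gene sum 50, 200 and, added after seeing the data, 1000; Defa genes plus Lyz1 under 5%; mitochondrial share under 15%), RLE factors, scaling without the rule genes, no count filter, removal of called doublets, the set as a block, and leaving out each library.

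The members, the 23 gene lists and the rule for named genes were chosen with earlier results of these data known. The rule names called genes with the same sign in both sets. Failing 5 per direction, it takes genes of at least 50 CPM with the largest smaller value of the 2 ratios. It adds called interactions, from each list the 4 genes of smallest p, the genes with the largest level differences (25) and tercile differences (5 per direction), and the mitochondrial mRNAs. Not every gene that this rule takes is reported here. Other members of lists were picked after their values were seen, for their roles. Promoters came from RefSeq's table for GRCm38.p6, the assembly that mm10 names, and coordinates from GENCODE vM21, which placed 450 of 450 genes looked up.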

Additional observations from a re-analysis of the deposited data

Results flagged for a closer look

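Results listed here differ between groups or lie outside the kept cells. The interaction tests found 2 genes whose genotype difference was not the same in goblet cells and in the other kept cells (edgeR, Benjamini-Hochberg adjusted p = 0.00182 for Gip and 0.0332 for Hbb-bs): Gip at 2.90 and Hbb-bs at -5.03 on the log2 scale.

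The remaining differences are between the sets, each of which has 1 library per genotype, so they were not tested. In goblet cells the median mitochondrial share of UMIs was higher in the mutant by 0.922 percentage points in set A and differed by -0.108 in B. The median log2 ratio of mutant to wild type had opposite signs in the sets for 12 of 23 lists. The 7 whose medians lay more than 0.5 apart are given. Secreted products stood at -0.43 in set A and 0.11 in B, and enteroendocrine markers at -0.11 and 0.47. Mitochondrial mRNAs stood at 0.50 and -0.23, and interferon and MHC genes at -0.19 and 0.90. Markers of the proximal intestine stood at 0.71 and -0.07, Paneth markers at 1.45 and -0.27, and cycling markers at 0.87 and -0.28.

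Barcodes with at least 100 UMIs that failed the filters on cells also held mucus genes. A mucus-gene sum of 100 or more was found in 223 of 1441 such barcodes of wild type 1 (15.5%), 102 of 2302 of mutant 1 (4.43%), 23 of 4209 of wild type 2 (0.546%) and 32 of 3752 of mutant 2 (0.853%). Those barcodes had medians of 616, 753, 866 and 891 UMIs and of 3.16%, 4.81%, 23.4% and 19.7% mitochondrial UMIs. They enter no comparison.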

How the results depend on the processing

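The share of goblet cells, mutant minus wild type, was -7.30 to 1.18 points when each library was left out in turn, the last without wild type 1, and kept its sign under the other alternatives run, as did the differences in median UMIs (-6340.5 to -1696) and in mitochondrial share (0.0401 to 0.725 points) under all of theirs. A replicate block for the set cannot change the share difference of -3.06 points, since each set has 1 library per genotype. It is no check of that difference, nor of those in median UMIs and mitochondrial share. With that block edgeR called 0 genes in goblet cells. Genes called there, 0 in the fit given, were 1 with DESeq2 and the replicate block, 21 with no filter on low counts, and 0 to 32 when leaving out a library. Genes whose genotype difference differed between goblet and other cells, 2 in the fit given, were 10 with DESeq2, 81 with no filter on low counts, 0 with the mucus-gene threshold at 50, 0 at 200, 1 without called doublets, and 0 to 3 when leaving out a library. The cause was not tested. With 2 libraries per genotype only large differences can be called, and a count of 0 does not show that goblet cells are alike in both genotypes. In goblet cells Hbb-bs rests on 2 to 32 UMIs per library.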
